A study of Homo sapiens with 9 samples.

Results

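The genes described are 31 transcriptional targets of the tumour suppressor p53, chosen by gene symbol and matched to 31 of the 58884 Ensembl gene identifiers listed for every library. They were measured by RNA sequencing in HK-2 cells, which are human proximal tubule epithelial cells of the kidney grown as an immortal line. Control cells are labelled untreated at 24 hours, and the protocol gives controls the vehicle. The PM2.5 group was exposed for 24 hours to PM2.5, airborne particulate matter of the fine size class. The lactoferrin plus PM2.5 group received lactoferrin, an iron-binding glycoprotein, for 6 hours and then PM2.5 for 18 hours. The series text gives 1 mg/ml for PM2.5 and 40 mg/ml for lactoferrin, high values whose unit could not be checked. Each group had 3 libraries. The labels do not tie the libraries of a group to different cultures. The p-values therefore cover the spread between these libraries, which may be technical. No group received lactoferrin alone, and all 3 groups are of the same cell line.

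p53 is a transcription factor that is held at a low level by its target MDM2, an E3 ubiquitin ligase, and that accumulates when DNA damage or other stress releases it. It then activates genes that stop the cell cycle, repair DNA, alter redox metabolism or open the mitochondrial and death receptor routes to apoptosis, and several of its targets feed back on p53 itself. In the proximal tubule the pathway is known for its part in injury by toxins and ischaemia. HK-2 cells were immortalised with papillomavirus E6 and E7 genes, and E6 directs p53 to degradation through the ligase UBE3A, which limits the line as a model of p53 regulation. Several of the target genes are also activated by other stress-responsive transcription factors.

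The libraries held between 15313451 and 18820465 assigned fragments, as rebuilt from the deposited FPKM values (fragments per kilobase of exon, scaled to the library total). Control replicate 3 and lactoferrin plus PM2.5 replicates 1 and 3 stood farthest from their group, with median absolute log2 differences of 0.191, 0.226 and 0.192 from the other libraries, against 0.092 to 0.155 elsewhere. In the same libraries the signed log2 difference changed by 0.039, -0.026 and 0.024 per doubling of exon length. Elsewhere this slope was -0.025 to 0.013, and the part of exon length in the results was not tested. Of 15 proximal tubule markers, 11 stayed under 0.5 FPKM in every library, among them LRP2, CUBN, HNF4A and SLC22A6, while PAX8, MME, GGT1 and ALPL passed that level. The summed level of the 15 was 53.8 to 57.5 FPKM in controls, 82.7 to 90.3 FPKM with PM2.5 and 72.3 to 83.6 FPKM after lactoferrin and PM2.5, most of it PAX8. With PM2.5, PAX8 (0.61, adjusted p = 0.000537) and MME (0.73, adjusted p = 0.00129) rose on the log2 scale of the limma fit, and ALPL fell (-0.76, adjusted p = 0.0138). All 5 endothelial and all 6 distal tubule and collecting duct markers stayed under 0.5 FPKM, as did 5 of 7 immune markers. Of 7 fibroblast markers 4 stayed under it, COL1A2, COL3A1 and PDGFRA near 0, and the summed level of the 7 was 48 to 54.3 FPKM in controls, 66.2 to 68 FPKM with PM2.5 and 50.7 to 55 FPKM after lactoferrin and PM2.5. Most of that sum was LUM, with a mean of 43.0 FPKM in controls and 64.9 FPKM with PM2.5, while COL1A1 fell from 6.77 to 1.42 FPKM (-1.95, adjusted p = 1.13e-05) and PDGFRB went from 0.334 to 0.0881 FPKM. The 7 epithelial markers summed to 394 to 420, 326 to 333 and 321 to 394 FPKM in the same order. The part of these shifts in the results that follow was not tested. In bulk RNA, fewer cells of a type and less RNA per cell cannot be told apart.

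Promoters of 26 of the 31 genes were in the RefSeq table of GRCh38.p14, as 250 bases before to 50 bases after the start site, and 6 of these (23.1%) held an exact match to the p53 half-site consensus, against 8.06% of 27305 genes with a promoter in the table. The members were chosen as p53 targets, so their higher share is not a test. They also had 39 promoter stretches for 26 genes, against 35116 for the 27305 genes. No promoter was in the table for GADD45A, PHLDA3, RRM2B, TNFRSF10B or TP53INP1. The windows of 30 bases around the matches are shown for the half-site letters they hold, although p53 binds paired half-sites and only DDB2 has more than 1 exact match. Each reads 5′ to 3′ on the strand of its gene, with the half-site in capitals. The DDB2 window, on the plus strand at chr11:47214975-47215004, holds a pair of half-sites separated by a single base. The others lie at chr10:88991299-88991328 (FAS, plus strand), chr15:88621296-88621325 (AEN, plus strand), chr6:109009018-109009047 (SESN1, minus strand), chr5:58460199-58460228 (PLK2, minus strand) and chr17:74872986-74873015 (FDXR, minus strand).
DDB2: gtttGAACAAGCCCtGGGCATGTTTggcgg
FAS: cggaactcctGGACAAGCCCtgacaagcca
AEN: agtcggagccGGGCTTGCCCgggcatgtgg
SESN1: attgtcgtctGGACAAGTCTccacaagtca
PLK2: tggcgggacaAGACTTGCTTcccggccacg
FDXR: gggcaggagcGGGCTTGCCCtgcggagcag
A match is a description of the letters and not of binding, and the lack of one says only that these letters are not in this window. CDKN1A and MDM2 had no exact match, and where their known p53 elements lie relative to the window was not tested.

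Of the 31 targets, 29 reached 0.5 FPKM in at least 3 libraries and were tested among 14454 genes. EDA2R, a death receptor of the tumour necrosis factor receptor family, is listed at 0 in all 9 libraries. SPATA18, a mediator of mitochondrial quality control, stayed at or under 0.0656 FPKM, which is at most 5 fragments. In control cells the highest member was PLK2 at 151.0 ± 9.95 FPKM (mean ± SD, n = 3). CDKN1A at 30.3 ± 5.68, CCNG1 at 29.3 ± 2.94, GADD45A at 28.4 ± 5.54, BAX at 28.2 ± 6.59 and PMAIP1 at 25.1 ± 2.82 FPKM followed, and neighbours among these 5 differed by less than the larger of their SDs. MDM2 ranked 19th at 3.75 ± 0.189 FPKM. FAS at 1.29 ± 0.108, BBC3 at 1.18 ± 0.400 and TIGAR at 0.952 ± 0.120 FPKM were the lowest of the tested members. BBC3 rested on only 22 to 79 fragments per library and TIGAR on 56 to 129.

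The first comparison asks how exposure to PM2.5 changed the p53 network. The targets split: CDKN1A, PMAIP1 and PLK3 rose to more than 2.5 times their control means, while RNF144B and TP53INP1 fell to less than 0.5 of theirs. In all, 10 members rose and 7 fell. All genes called made up 35.1% of those tested, 18.7% higher and 16.4% lower, against 34.5% and 24.1% of the tested members. The median log2 fold change was -0.12 over the 29 members and 0.00 over all tested genes. The 2 groups did not overlap in FPKM for 10 higher and 7 lower members, where 30.9% and 22.7% of all tested genes had such a gap.

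Among 27 regulators and relatives of p53, 25 were tested, 3 rose with PM2.5 (12%) and 5 fell (20%), near the 18.7% and 16.4% of all tested genes, with a median log2 fold change of -0.10. Across the 20 alternatives 2 to 5 rose and 0 to 7 fell. The untested TP63 and TP73 were at or under 0.0456 and 0.0282 FPKM in every library. RCHY1, an E3 ligase for p53, rose by 0.75 ± 0.12 on the log2 scale (± is the SE; adjusted p = 0.00186, limma with Benjamini-Hochberg adjustment over all tested genes). USP10, a deubiquitinase of p53, rose by 0.40 ± 0.08 (adjusted p = 0.00463), and PML, the organiser of nuclear bodies that take up p53, rose by 0.36 ± 0.09 (adjusted p = 0.0133). The genes that fell were the damage kinases ATM (-0.66 ± 0.20, adjusted p = 0.0327) and CHEK2 (-0.33 ± 0.10, adjusted p = 0.0374), the p53 ligase TRIM24 (-0.48 ± 0.14, adjusted p = 0.0266), CDKN2A, whose ARF product binds MDM2 (-0.55 ± 0.14, adjusted p = 0.0156), and RPL11, a ribosomal protein that also binds MDM2 (-0.54 ± 0.17, adjusted p = 0.0364). These 5 calls and that of PML were each lost when single libraries were left out, at adjusted p between 0.0507 and 0.126. Each control replicate, each PM2.5 replicate and lactoferrin plus PM2.5 replicate 2 ended at least 1 of the 6 when removed. MDM4, the partner of MDM2, did not pass the test (0.09 ± 0.11, adjusted p = 0.586), nor did UBE3A (-0.20 ± 0.16, adjusted p = 0.343).

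**Figure D1:**
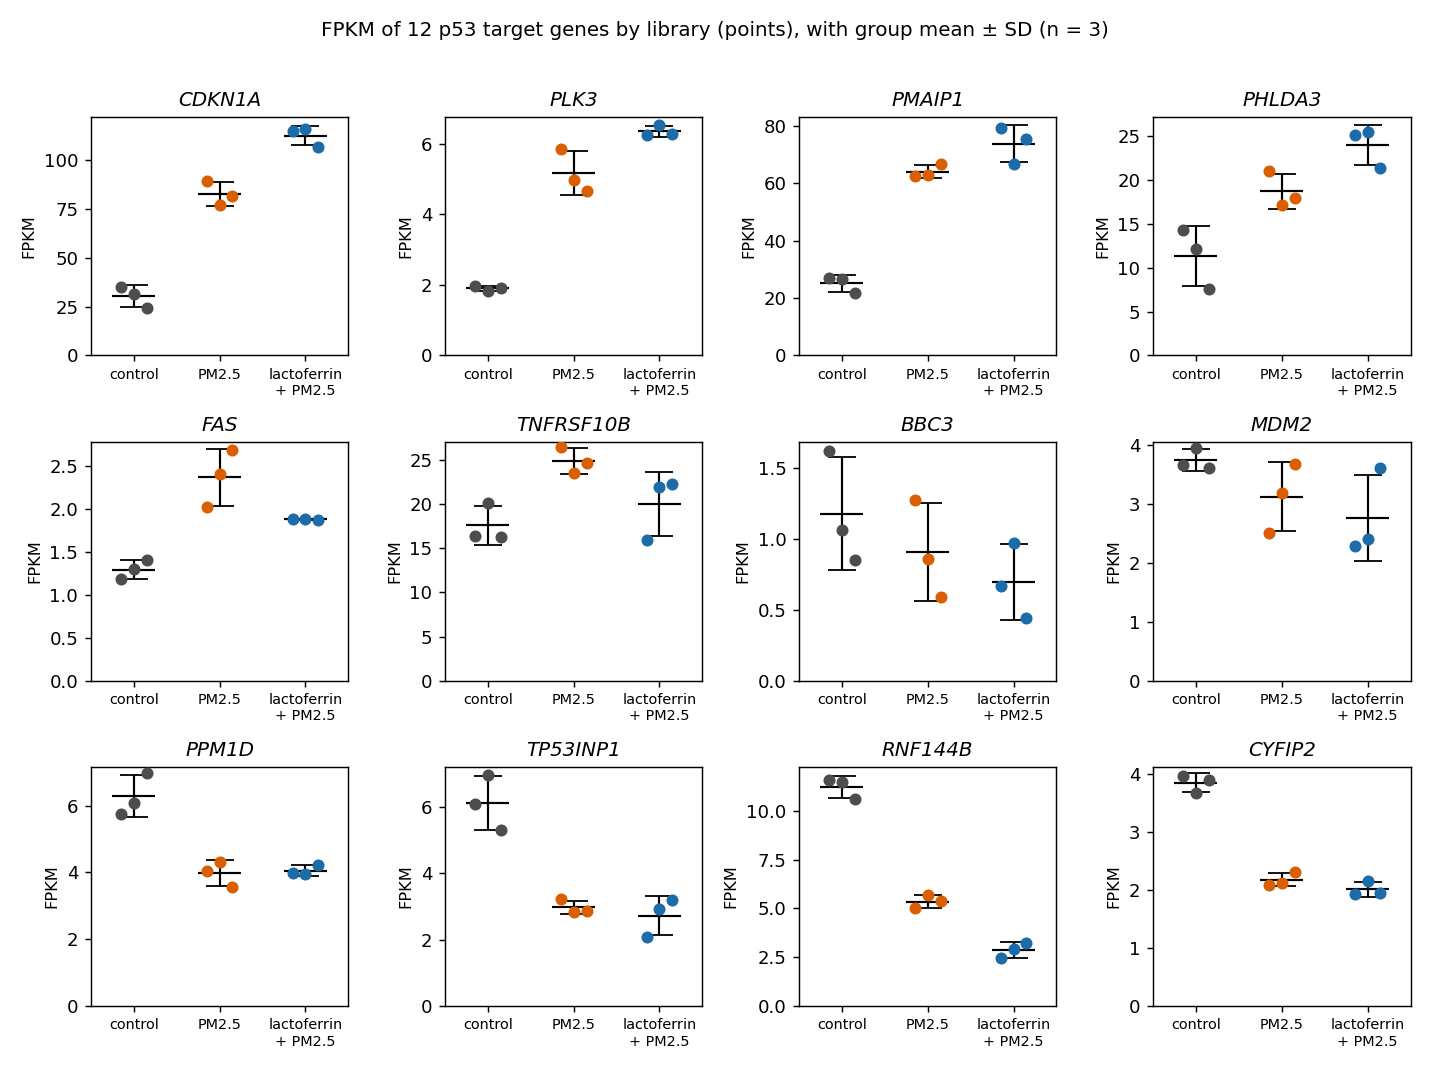
FPKM of 12 target genes on linear axes from 0, with 1 point per library, horizontal bars for group means and error bars for the SD (n = 3). CDKN1A, PLK3 and PMAIP1 are higher in all 6 exposed libraries than in any control library, while TP53INP1 and RNF144B are lower in all 6.

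The cell cycle brakes went both ways: of 6 genes, CDKN1A, PLK3 and GADD45A rose with PM2.5, BTG2 and PLK2 fell, and CCNG1 did not pass the test. Thus 50% were higher and 33.3% lower, against 18.7% and 16.4% of all tested genes. Across the 20 alternatives 2 to 3 rose and 1 to 2 fell. CDKN1A encodes p21, the inhibitor of cyclin-dependent kinases through which p53 arrests the cycle. It stood at 35.3, 31.6 and 24.1 FPKM in controls, 89.6, 77.2 and 81.5 FPKM with PM2.5 and 115, 116 and 107 FPKM after lactoferrin and PM2.5. The lowest exposed library held more than 2 times the level of the highest control library, and each group lay apart from the others. The log2 fold change with PM2.5 was 1.40 ± 0.13 (adjusted p = 5.3e-05). PLK3, a stress-responsive polo-like kinase, was low in controls at 1.98, 1.82 and 1.91 FPKM. It reached 5.86, 4.97 and 4.66 FPKM with PM2.5 and 6.26, 6.53 and 6.28 FPKM after lactoferrin and PM2.5, again without overlap between groups. Its log2 fold change with PM2.5 was 1.19 ± 0.10 (adjusted p = 3.87e-05).

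GADD45A, a small stress protein that slows the cycle at the G2 to M step, was at 25.1, 25.3 and 34.8 FPKM in controls and at 42.9, 39.1 and 41.2 FPKM with PM2.5. Control replicate 3 was the highest control library and still lay below every PM2.5 library. The log2 fold change was 0.49 ± 0.15 (adjusted p = 0.0313). This call was lost without control replicate 1 or 2 or any 1 of the PM2.5 replicates, at adjusted p from 0.0595 to 0.105. PLK2, a polo-like kinase active early in the cycle, read 142, 150 and 161 FPKM in controls, 105, 132 and 133 FPKM with PM2.5 and 96.5, 96.9 and 100 FPKM after lactoferrin and PM2.5. Its fall with PM2.5, by 0.34 on the log2 scale (SE 0.11, adjusted p = 0.0342), was largest in PM2.5 replicate 1. The call was lost without that library (-0.25, adjusted p = 0.128) and without any of 5 others, control replicates 2 and 3, PM2.5 replicates 2 and 3 and lactoferrin plus PM2.5 replicate 2. BTG2, an antiproliferative cofactor of mRNA deadenylation, fell from 4.31, 4.03 and 3.31 FPKM to 2.69, 2.49 and 2.99 FPKM (-0.48 ± 0.12, adjusted p = 0.012). CCNG1, cyclin G1, ranged from 25.9 to 31.1 FPKM in controls and from 27.8 to 29.1 FPKM with PM2.5, with a 95% interval of the log2 difference from -0.30 to 0.13.

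Of the 5 genes that feed back on p53 and its network, none rose with PM2.5 and PPM1D, TP53INP1 and RNF144B fell, with a median log2 fold change of -0.64. The 60% that fell stand beside 16.4% of all tested genes, of which 18.7% rose and whose median was 0.00. In so short a list the lack of a rise says little. MDM2, the ligase that p53 induces against itself, read 3.66, 3.96 and 3.62 FPKM in controls, 2.51, 3.19 and 3.68 FPKM with PM2.5 and 2.29, 2.40 and 3.61 FPKM after lactoferrin and PM2.5. The groups overlapped through PM2.5 replicate 3, and the log2 difference of PM2.5 from control was -0.28 with a 95% interval from -0.62 to 0.06 (adjusted p = 0.178). That interval holds no doubling of MDM2, while CDKN1A in the same libraries more than doubled. PPM1D encodes the phosphatase WIP1, which takes phosphate from p53 and its kinases. It went from 5.76, 6.09 and 6.98 FPKM in controls to 4.05, 4.32 and 3.57 FPKM with PM2.5, a change of -0.64 ± 0.11 (adjusted p = 0.0021).

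TP53INP1, a nuclear protein that promotes the death-directed phosphorylation of p53, was at 6.08, 6.96 and 5.32 FPKM in controls and at 3.21, 2.83 and 2.87 FPKM with PM2.5. Every exposed library was below every control, and the log2 fold change was -0.97 ± 0.13 (adjusted p = 0.00067). RNF144B, an E3 ligase of the RBR type, stood at 11.6, 11.5 and 10.6 FPKM in controls, 5.02, 5.68 and 5.36 FPKM with PM2.5 and 2.45, 2.94 and 3.23 FPKM after lactoferrin and PM2.5. The 3 groups formed separate steps downward. Its change with PM2.5 was -1.05 ± 0.09 (adjusted p = 3.87e-05). ZMAT3, a zinc finger RNA-binding protein, ranged from 3.07 to 3.97 FPKM in controls and from 2.97 to 3.73 FPKM with PM2.5 and did not pass the test (-0.12 ± 0.13, adjusted p = 0.517).

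Of the genes that act in death at the mitochondria, 5 were tested, PMAIP1 and AEN rose with PM2.5 and none fell. The 40% that rose stand beside 18.7% of all tested genes, of which 16.4% fell. PMAIP1 encodes NOXA, a BH3-only protein that neutralises MCL1. It stood at 26.9, 26.5 and 21.8 FPKM in controls, 62.5, 62.9 and 66.7 FPKM with PM2.5 and 79.1, 66.7 and 75.5 FPKM after lactoferrin and PM2.5. All 6 exposed libraries held more than 2 times the level of the highest control, and the change with PM2.5 was 1.30 ± 0.09 (adjusted p = 1.59e-05). BBC3 encodes PUMA, the other BH3-only protein that p53 is best known to induce. It read 1.62, 1.06 and 0.847 FPKM in controls and 1.27, 0.859 and 0.589 FPKM with PM2.5, and the groups overlapped. The log2 difference was -0.29 with a 95% interval from -0.83 to 0.26, the widest among the members.

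AEN, a nuclease that enhances apoptosis, rose from 5.81, 4.86 and 3.73 FPKM to 6.79, 7.11 and 7.09 FPKM (0.48 ± 0.12, adjusted p = 0.012). BAX, the pore former of the outer mitochondrial membrane, was spread from 20.9 to 33.9 FPKM in controls, with replicate 3 lowest, and from 31.6 to 38.9 FPKM with PM2.5. Its log2 difference of 0.28 ± 0.15 did not pass the test (adjusted p = 0.17). TRIAP1, a small inhibitor of apoptosis, ranged from 12.6 to 21.3 FPKM in controls and from 12.0 to 15.1 FPKM with PM2.5 (-0.31 ± 0.18, adjusted p = 0.206).

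Among the genes of death receptors and other death or survival signalling, FAS, TNFRSF10B, PHLDA3 and SUSD6 rose and CYFIP2 fell, so that all 5 tested members were called. That is 80% higher and 20% lower, against 18.7% and 16.4% of all tested genes. Across the 20 alternatives 2 to 4 rose and 1 fell. FAS, the receptor for FAS ligand, was at 1.18, 1.30 and 1.40 FPKM in controls, 2.02, 2.41 and 2.68 FPKM with PM2.5 and 1.88, 1.88 and 1.87 FPKM after lactoferrin and PM2.5. Its change with PM2.5 was 0.64 ± 0.10 (adjusted p = 0.00168). ACTA2, on the opposite strand, shares 8.9% of its exonic bases. TNFRSF10B, which encodes the TRAIL receptor DR5, read 16.4, 20.1 and 16.3 FPKM in controls, 26.5, 23.6 and 24.7 FPKM with PM2.5 and 15.9, 22.0 and 22.3 FPKM after lactoferrin and PM2.5. The rise with PM2.5 was 0.45 ± 0.13 (adjusted p = 0.0242). It was lost without control replicate 1 or 3 or PM2.5 replicate 1 or 3, at adjusted p from 0.0536 to 0.0857.

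PHLDA3 competes with AKT for membrane lipids and so restrains survival signalling. It stood at 14.3, 12.1 and 7.56 FPKM in controls and at 25.1, 25.5 and 21.4 FPKM after lactoferrin and PM2.5. With PM2.5 alone the mean was 18.7 FPKM and the lowest libraries, replicates 2 and 3, read 17.2 and 17.9 FPKM. Control replicate 3 was far below the other controls, yet no control reached a PM2.5 library. Another annotated gene on the same strand shares 19.1% of its exonic bases. The change with PM2.5 was 0.69 ± 0.19 (adjusted p = 0.0199), and without PM2.5 replicate 1 it no longer passed (0.59, adjusted p = 0.0732). SUSD6, a membrane protein with growth-suppressing activity, went from 3.12, 2.79 and 2.53 FPKM to 4.25, 4.03 and 4.58 FPKM (0.49 ± 0.12, adjusted p = 0.0119). CYFIP2, a subunit of the actin-regulating WAVE complex, fell from 3.97, 3.66 and 3.90 FPKM to 2.09, 2.12 and 2.30 FPKM (-0.74 ± 0.08, adjusted p = 0.000213).

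None of the 4 genes of DNA repair and nucleotide supply rose with PM2.5, and XPC fell. That is 25% lower, beside 16.4% of all tested genes, of which 18.7% rose. Across the 20 alternatives 1 to 3 fell. XPC, the damage sensor of nucleotide excision repair, went from 4.34, 4.78 and 5.36 FPKM in controls to 3.37, 3.27 and 3.50 FPKM (-0.50 ± 0.10, adjusted p = 0.00423). Genes annotated on the opposite strand, LSM3 among them, cover 30.4% of its exonic bases. DDB2, which loads XPC onto ultraviolet damage, read 1.89, 2.18 and 1.52 FPKM in controls and 1.65, 1.13 and 1.17 FPKM with PM2.5 (-0.42 ± 0.15, adjusted p = 0.061), and leaving out PM2.5 replicate 1 (adjusted p = 0.0261) or control replicate 3 (adjusted p = 0.0448) brought it past the threshold. POLH, the translesion polymerase eta, was at 5.64 to 7.05 FPKM and 5.28 to 5.78 FPKM (-0.29 ± 0.11, adjusted p = 0.0622), and passed without control replicate 1 (adjusted p = 0.0125) or lactoferrin plus PM2.5 replicate 1 (adjusted p = 0.048). RRM2B, a ribonucleotide reductase subunit, had means of 3.16 FPKM in controls and 2.90 FPKM with PM2.5 (-0.15 ± 0.10, adjusted p = 0.288).

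Of 4 genes of redox and metabolism, TIGAR rose and none fell. That is 25% higher, near the 18.7% of all tested genes, of which 16.4% fell. TIGAR, a phosphatase that turns glucose from glycolysis to the pentose phosphate path, was at 0.913, 1.09 and 0.856 FPKM in controls, 1.51, 1.79 and 1.64 FPKM with PM2.5 and 1.40, 1.41 and 1.61 FPKM after lactoferrin and PM2.5. Its change with PM2.5 was 0.53 ± 0.10 (adjusted p = 0.00329), but 45.6% of its exonic bases are shared with other annotated genes, so its reads cannot all be assigned to it. SESN1, a sestrin that restrains the growth kinase mTORC1, read 1.91, 1.84 and 1.48 FPKM in controls and 1.21, 1.40 and 1.51 FPKM with PM2.5 (-0.29 ± 0.10, adjusted p = 0.0549), and passed without control replicate 3 (adjusted p = 0.0338) or lactoferrin plus PM2.5 replicate 1 (adjusted p = 0.0477). FDXR, ferredoxin reductase, and TP53I3, a quinone oxidoreductase, had 95% intervals of the log2 difference from -0.43 to 0.25 and from -0.22 to 0.39. Of the 6 genes with a half-site shown above, FAS and AEN rose, PLK2 fell, and DDB2, SESN1 and FDXR did not pass the test.

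**Figure D2:**
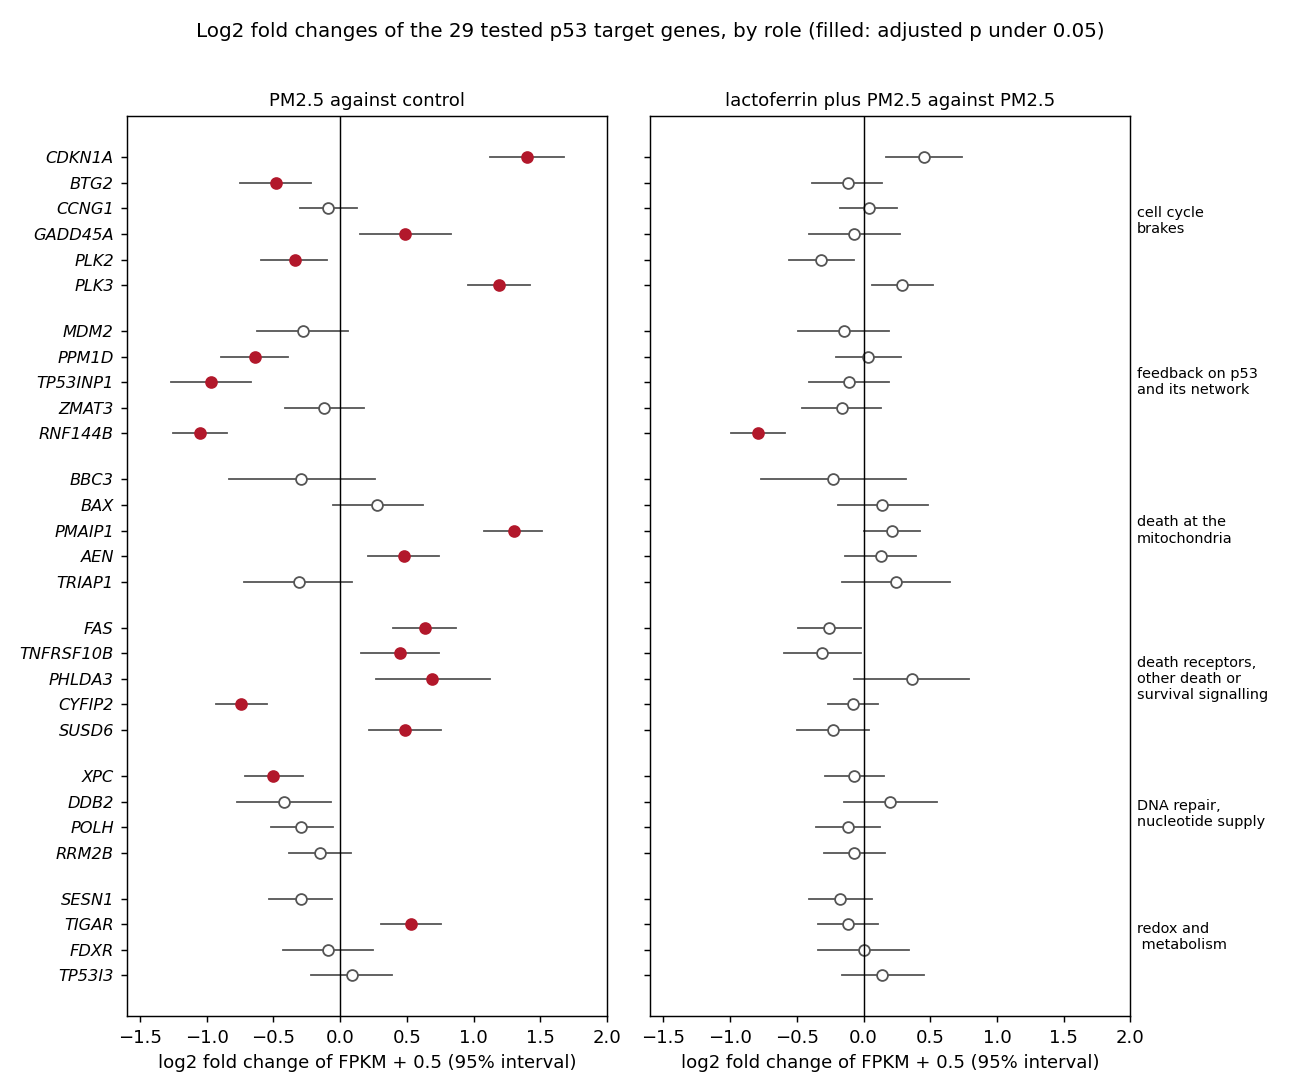
Log2 fold change of FPKM + 0.5 on the x axis for the 29 tested targets grouped by role, with 95% intervals as lines and filled points for adjusted p under 0.05. With PM2.5 against control (left) 10 genes are filled above 0 and 7 below, and between the exposed groups (right) RNF144B is the single filled point.

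Other genes of the pathway were read from 5 further lists in the same fit. Of 49 tested further direct p53 targets, 11 rose with PM2.5 (22.4%) and 8 fell (16.3%), near the 18.7% and 16.4% of all tested genes, with a median log2 fold change of 0.10. Across the 20 alternatives 8 to 15 rose and 4 to 11 fell. The 4 with the smallest adjusted p were CD82, a tetraspanin (1.69 ± 0.10, adjusted p = 4.38e-06), GDF15, a secreted stress cytokine (2.35 ± 0.15, adjusted p = 7.08e-06), KITLG, the ligand of the receptor KIT (-1.64 ± 0.15, adjusted p = 5.67e-05), and ATF3, a stress-induced transcription factor (0.98 ± 0.09, adjusted p = 7.18e-05). GDF15 read 15.2, 14.4 and 15.8 FPKM in controls and 103, 70.2 and 76.3 FPKM with PM2.5. Of 17 partners of p21 and other inhibitors of cyclin-dependent kinases, 3 rose (17.6%) and 6 fell (35.3%), and 2 to 3 rose and 4 to 8 fell across the alternatives. CCND1, cyclin D1, rose by 1.86 ± 0.09 (adjusted p = 2.86e-06), whereas the inhibitors CDKN2C (-1.07 ± 0.13, adjusted p = 0.000388), CDKN1B (-0.70 ± 0.09, adjusted p = 0.000444) and CDKN2B (6.45 to 9.14 FPKM in controls and 3.52 to 3.96 FPKM with PM2.5, adjusted p = 0.000547) fell. CDKN1A thus moved opposite to these 3 inhibitors.

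Among 18 genes known to be repressed through p21 and the DREAM complex, which shuts off the genes of mitosis, 13 fell with PM2.5 (72.2%, against 16.4% of all tested genes) and none rose, with a median log2 fold change of -0.48. CCNA2, cyclin A2 (-0.71 ± 0.09, adjusted p = 0.000352), CCNB2, cyclin B2 (-0.82 ± 0.10, adjusted p = 0.000381), MKI67, the proliferation antigen Ki-67 (-1.85 ± 0.27, adjusted p = 0.000981), and KIF23, a kinesin of cytokinesis (-1.01 ± 0.15, adjusted p = 0.00105), had the smallest adjusted p. Across the 20 alternatives between 10 and 15 of the 18 fell. These are genes of mitosis and proliferation in a line that carries papillomavirus E6 and E7. Whether p53, p21 or DREAM took part in their fall was not tested. Of 10 tested partners of the death receptors, 4 rose (40%, against 18.7% of all tested genes) and 1 fell (10%). TNFRSF10A, the TRAIL receptor DR4 (0.85 ± 0.13, adjusted p = 0.000983), TNFRSF10D, a decoy receptor (0.61 ± 0.12, adjusted p = 0.00414), and the initiator caspase CASP10 (0.50 ± 0.08, adjusted p = 0.0016) rose as FAS and TNFRSF10B did, while the TRAIL ligand TNFSF10 fell (-0.88 ± 0.18, adjusted p = 0.00473). Of 14 tested BCL2 family and apoptosome partners, 2 rose (14.3%) and 3 fell (21.4%), near the shares of all tested genes, and 0 to 2 rose across the alternatives. APAF1, the scaffold of the apoptosome (-0.89 ± 0.14, adjusted p = 0.00132), BMF, a BH3-only protein (-0.70 ± 0.11, adjusted p = 0.0015), and BOK, a BAX relative (-0.68 ± 0.12, adjusted p = 0.00237), fell. BAK1, the other pore former, rose by 0.70 ± 0.18 (adjusted p = 0.0137), but not without PM2.5 replicate 1 (adjusted p = 0.0522).

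**Figure D3:**
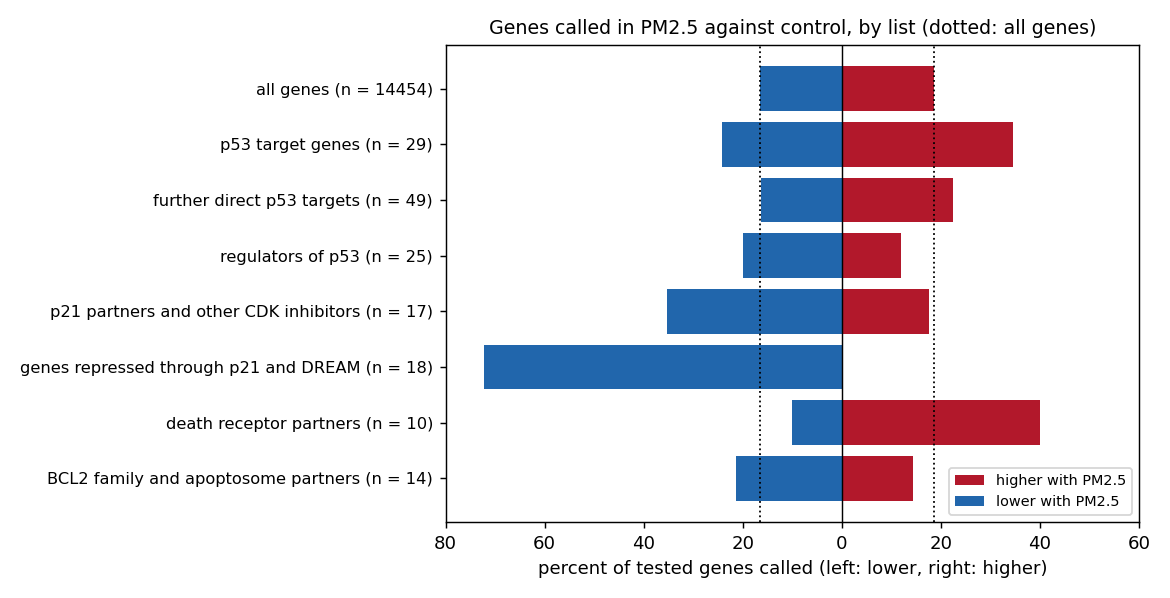
Percent of the tested genes of each list called higher (right) or lower (left) with PM2.5 against control, with dotted lines at the shares over all 14454 genes. The p53 target genes reach 34.5% higher and 24.1% lower, and the list repressed through p21 and DREAM has 13 of 18 genes lower and none higher.

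The second comparison asks whether the targets differed between cells given lactoferrin before PM2.5 and cells given PM2.5 alone. RNF144B was lower after lactoferrin, no member was called higher, and the other 28 did not pass the test. Over all genes 0.0484% were called, 3 higher (0.0208%) and 4 lower (0.0277%). The group with lactoferrin also had 6 fewer hours of PM2.5, so the agent and the shorter exposure cannot be told apart. RNF144B fell from 5.02, 5.68 and 5.36 FPKM to 2.45, 2.94 and 3.23 FPKM, a log2 change of -0.79 ± 0.09 (adjusted p = 0.0208), with every library after lactoferrin below every PM2.5 library. The call did not hold under 8 of 20 alternatives, although the log2 change stayed between -0.90 and -0.71. It was lost without control replicate 1 or 2, any PM2.5 replicate or lactoferrin plus PM2.5 replicate 2, at adjusted p from 0.0503 to 0.156.

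At an unadjusted p under 0.05, 6 members and 1761 of the 14454 genes differed in this comparison. CDKN1A was higher after lactoferrin in 3 of 3 libraries, at 107 to 116 FPKM against 77.2 to 89.6 FPKM, with a log2 difference of 0.45 and a 95% interval from 0.17 to 0.74 (adjusted p = 0.304). PLK3 differed by 0.29 (interval 0.06 to 0.52, adjusted p = 0.374), PLK2 by -0.32 (interval -0.56 to -0.07, adjusted p = 0.369), TNFRSF10B by -0.31 (interval -0.60 to -0.02, adjusted p = 0.397) and FAS by -0.26 (interval -0.49 to -0.02, adjusted p = 0.397). The groups did not overlap for 4 higher members, CDKN1A, PLK3, AEN and PHLDA3, and for 5 lower members, FAS, TNFRSF10B, PLK2, XPC and RNF144B, where 11.3% and 9.79% of all tested genes were so separated. MDM4 differed by -0.41 ± 0.11 (adjusted p = 0.302). None of the 25 tested regulators, the 49 further targets, the 18 genes repressed through p21 and DREAM or the genes of the other 3 lists was called by limma, nor by limma-voom on rebuilt fragments. At an unadjusted p under 0.05 the first 3 of these lists counted 3, 7 and 5 genes, and the partners of p21, of the death receptors and of the BCL2 family counted 4, 2 and 2. Of the 18 repressed genes, none of them called, 16 had a higher fitted value after lactoferrin, with a median log2 difference of 0.17. Among all tested genes 7371 of 14454 did, with a median of 0.00. The part of single libraries in this difference was not tested. Against control, 11 of the 18 were still lower after lactoferrin and PM2.5 (61.1%, against 18.2% of all tested genes) and none was higher. Their median log2 fold change against control was -0.33, and across the 20 alternatives 6 to 11 fell.

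Intervals bound the size of what could have gone undetected. For MDM2 the log2 difference between lactoferrin plus PM2.5 and PM2.5 was -0.15 (interval -0.49 to 0.19), for BAX 0.14 (interval -0.19 to 0.48), for PMAIP1 0.21 (interval 0.00 to 0.42) and for XPC -0.07 (interval -0.29 to 0.15). The interval of PMAIP1 holds no return to the control level, which would need a fall of 1.30 on the log2 scale. BBC3 again had the widest interval, from -0.77 to 0.32.

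**Figure D4:**
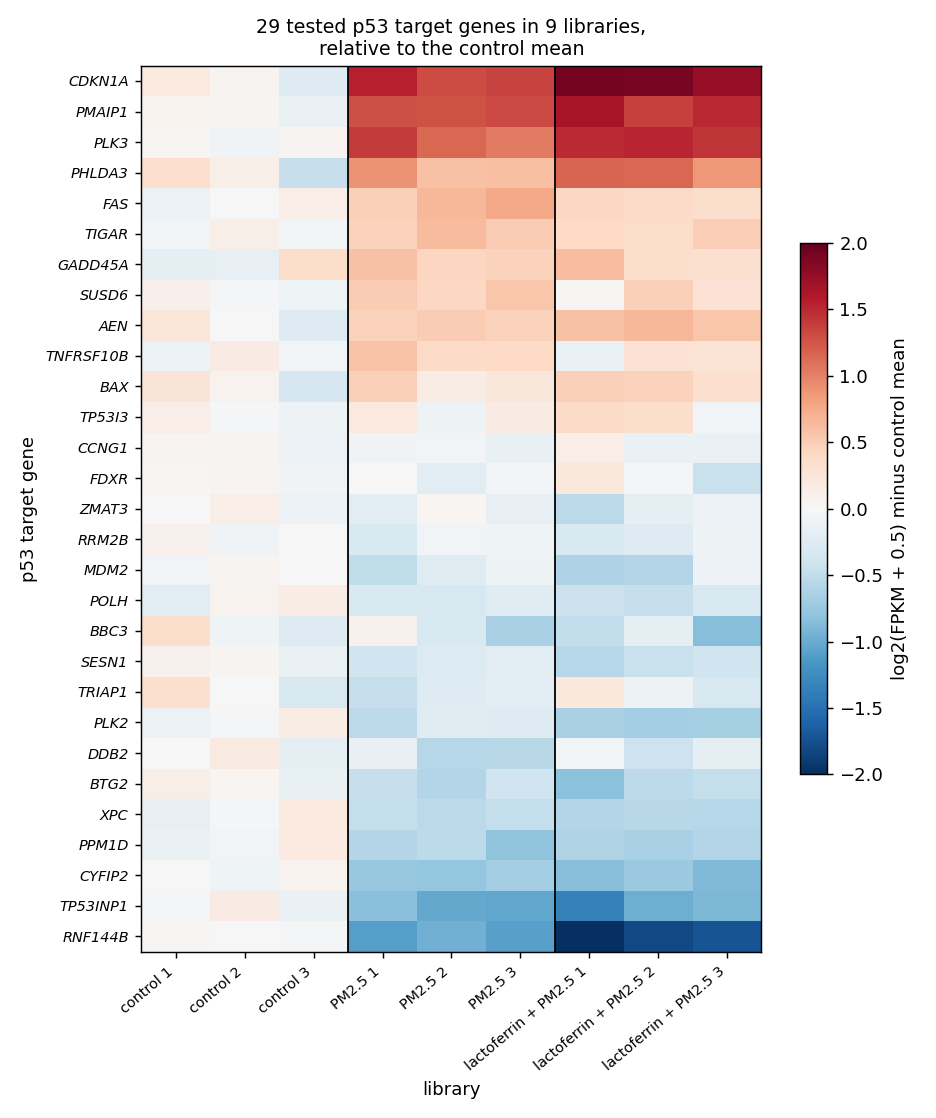
Log2(FPKM + 0.5) of the 29 tested targets in each of the 9 libraries minus the control mean, as colour from -2 (blue) to 2 (red), with genes ordered by their mean in the PM2.5 libraries. CDKN1A, PMAIP1 and PLK3 are red and RNF144B, TP53INP1 and CYFIP2 blue in all 6 exposed libraries.

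The third comparison set lactoferrin plus PM2.5 against the same control libraries that served the first. Here 8 members (27.6%) rose and 10 (34.5%) fell, where 38.5% of all tested genes were called, 20.4% higher and 18.2% lower, and the members' median log2 fold change was -0.09. Groups did not overlap for 9 higher and 10 lower members, against 26.8% and 20.7% of all tested genes. Called higher in both comparisons with control were CDKN1A, FAS, PLK3, TIGAR, AEN, PHLDA3 and PMAIP1, and called lower in both were TP53INP1, BTG2, PLK2, XPC, PPM1D, CYFIP2 and RNF144B. CDKN1A reached a log2 fold change of 1.86 ± 0.13 (adjusted p = 8e-06), PMAIP1 1.50 ± 0.09 (adjusted p = 5.01e-06), PLK3 1.48 ± 0.10 (adjusted p = 8.22e-06), PHLDA3 1.06 ± 0.19 (adjusted p = 0.0023) and RNF144B -1.84 ± 0.09 (adjusted p = 1.47e-06). Of the 25 tested regulators, 3 rose (12%) and 4 fell (16%), against 20.4% and 18.2% of all tested genes. Across the 20 alternatives 1 to 4 regulators rose and 0 to 7 fell. MDM4 was among those that fell, but its call was lost under 13 of the 20.

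TNFRSF10B (0.14 ± 0.13, adjusted p = 0.418), GADD45A (0.42 ± 0.15, adjusted p = 0.0511) and SUSD6 (0.26 ± 0.12, adjusted p = 0.113) passed against control with PM2.5 alone but not after lactoferrin. The difference between the exposed groups did not pass the test for any of the 3. TNFRSF10B and SUSD6 were lowest in lactoferrin plus PM2.5 replicate 1, at 15.9 and 2.85 FPKM, beside 22.0 and 22.3 FPKM and 4.22 and 3.72 FPKM in the other libraries of that group. Without that library SUSD6 passed against control (0.38, adjusted p = 0.0213), and GADD45A passed without control replicate 3 (0.59, adjusted p = 0.00398). With every library kept, GADD45A also passed under no scaling, upper-quartile factors, the stricter filter and limma-voom, at adjusted p from 0.0202 to 0.0447. The reverse held for BAX (0.42 ± 0.15, adjusted p = 0.0487), which rose, and for MDM2 (-0.43 ± 0.15, adjusted p = 0.0474), SESN1 (-0.47 ± 0.10, adjusted p = 0.0068) and POLH (-0.40 ± 0.11, adjusted p = 0.0144), which fell. The calls of MDM2 and BAX were each lost without any of 7 single libraries, at adjusted p from 0.0513 to 0.14. For MDM2 these were the 3 control replicates, PM2.5 replicates 2 and 3 and lactoferrin plus PM2.5 replicates 1 and 2. For BAX they were control replicates 2 and 3, PM2.5 replicates 2 and 3 and all 3 lactoferrin plus PM2.5 replicates. That of FAS (0.38 ± 0.10, adjusted p = 0.0185) was lost without control replicate 1 or 2 or lactoferrin plus PM2.5 replicate 2 (adjusted p from 0.0564 to 0.0627), and that of POLH without control replicate 2 (adjusted p = 0.0566).

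BBC3, ZMAT3, RRM2B, DDB2, FDXR, CCNG1, TRIAP1 and TP53I3 were called in none of the 3 comparisons. For 5 of them an alternative gave a call. After lactoferrin against control, TP53I3 passed without lactoferrin plus PM2.5 replicate 3 (0.37, adjusted p = 0.0359), BBC3 with the library number as a block (-0.51, adjusted p = 0.0416) and CCNG1 without both control replicate 3 and lactoferrin plus PM2.5 replicate 1 (-0.19, adjusted p = 0.0434). With PM2.5 against control, TRIAP1 passed without the same 2 libraries (-0.48, adjusted p = 0.0232), and DDB2 passed under 5 alternatives, at log2 changes from -0.56 to -0.42 and adjusted p from 0.0261 to 0.0485. Without control replicate 3 and lactoferrin plus PM2.5 replicate 1 together, PM2.5 gave 10 higher and 9 lower members, lactoferrin plus PM2.5 gave 9 higher and 9 lower ones, and RNF144B remained the single call between the exposed groups.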

How the data were processed

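RNA of HK-2 cells was measured in 9 libraries, 3 per group, grouped by their labels. The deposited values, made by the authors, carry no stated unit and were taken as FPKM per gene from the values themselves. The submitters' processing notes name HISAT2 2.1.0 and the build GRCh38, Trimmomatic 0.38, DESeq2 1.22.1, featureCounts 1.6.0 and the tools MultiQC, FastQC and CASAVA. For annotation and strand the setting is not given in the sources used here. Reads of a gene and its antisense partner therefore cannot be told apart. GENCODE 29 exon lengths, found for 58611 identifiers, turned 85.9% to 87.2% of the low values (up to 200 fragments) into whole fragments within 0.05, which is the ground for the unit and gave the library totals. Whether reads or fragments were counted is not given in the sources used here.

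FPKM were divided by trimmed mean of M values factors (0.943 to 1.037), and log2(FPKM + 0.5) of genes with at least 0.5 FPKM in at least 3 libraries was fitted by group with limma 3.58.1 (R 4.3.3, trend and robust), with Benjamini-Hochberg adjustment over 14454 genes. Fold changes are on this log2 scale of FPKM + 0.5 and understate changes of low genes, and ± is the SE. A gene was called at an adjusted p under 0.05. The fit was tested on simulated data with a common spread for all genes and no outlying libraries. It recovered 12% to 18% of 1.25-fold changes and 68% to 82% of 1.5-fold changes, depending on the comparison. Between the exposed groups these shares were 14% and 68%, so small differences there could be missed. Replicates differed by more than sampling noise. Overlapping exons were counted from GENCODE, regardless of strand.

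The members and lists were chosen with earlier results of these data known. All members and all regulators could be named, and of other lists the 4 genes with the smallest adjusted p per comparison. Some listed genes are not reported here. Alternatives were other scalings, filters, pseudocounts and limma-voom, a replicate block, leaving out libraries and fitting only the libraries compared.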

Additional observations from a re-analysis of the deposited data

How the results depend on the processing

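Of the called members, 13 of 17 kept their call under every alternative that tested them (19 for TIGAR and SESN1, which the stricter filter removed, and 20 for the others) for PM2.5 against control, as did 14 of 18 when the lactoferrin plus PM2.5 group was set against control. The calls lost were those of TNFRSF10B, GADD45A, PLK2 and PHLDA3 in the first and of MDM2, BAX, FAS and POLH in the second, and their causes were not tested beyond the libraries named with each gene. Without a filter on low values PM2.5 gave 7 higher and 6 lower members of 30 tested.

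Between the exposed groups the count of lower members was 0 without a filter (RNF144B adjusted p = 0.0627), 0 with only the 6 libraries compared (adjusted p = 0.103), and 0 to 1 when single libraries were left out. The count of all genes called there was 17 with the stricter filter of 2 FPKM, 16 with limma-voom, 12 without control replicate 3 and lactoferrin plus PM2.5 replicate 1, 4 with only the 6 libraries compared, and 0 to 6 with single libraries left out. The directions that turned were all of small differences that passed no test. For the exposed groups these were PPM1D without PM2.5 replicate 3 (-0.05), TP53INP1 without lactoferrin plus PM2.5 replicate 1 (0.02) or without it and control replicate 3 (0.03), and CCNG1 in the same settings (-0.06 and -0.04). Against control after lactoferrin they were TRIAP1 without control replicate 1 (0.09) or lactoferrin plus PM2.5 replicate 3 (0.05) and FDXR without the latter (0.08). With libraries left out, TP53INP1 ranged from -0.20 to 0.03 between the exposed groups, and against control after lactoferrin FDXR ranged from -0.28 to 0.08 and TRIAP1 from -0.37 to 0.09.

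Libraries with the same number correlated at -0.07 to 0.18 in their deviations from the group means, and those with different numbers at -0.18 to 0.14. The numbers were not taken to pair the libraries, although these ranges do not exclude a weak pairing. With the number as a replicate block, PM2.5 gave 10 higher and 9 lower members, lactoferrin plus PM2.5 gave 8 and 11, and RNF144B was the only member called between the exposed groups, among 13 genes. All genes called went from 5077 to 5681 with PM2.5 and from 5569 to 6034 after lactoferrin and PM2.5, each against control.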
